A study of Mus musculus with 13 samples.

Results

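Bone marrow that lacked miR-146a was compared with bone marrow that had it, over all 13 libraries of the series and across both states of the gene Tifab. The 7 libraries lacking miR-146a were 3 of the genotype TIFAB+/+;miR-146a-/- (miR-146a_KO) and 4 of TIFAB-/-;miR-146a-/- (dKO), and the 6 libraries having it were 3 of TIFAB+/+;miR-146a+/+ (WT) and 3 of TIFAB-/-;miR-146a+/+ (TIFAB_KO). Membership was set by the labelled genotype alone, and Tifab state entered the model as an additive term, so the difference reported is the average of miR-146a_KO against WT and dKO against TIFAB_KO, with weights of 46.7% and 53.3%. All groups were marrow transplants: donor cells were injected into syngeneic Boy/J recipients conditioned with 7.0 Gy and, 3 h later, 4.75 Gy, and the labels give mouse ages of 2 to 5 months. LK cells, the lineage-negative, Kit-positive marrow fraction made up mostly of committed myeloid, erythroid and megakaryocyte progenitors, were sorted and their total RNA was amplified and sequenced. What either allele removes, and the share of host cells left after transplantation, is not stated in the labels. The protocol states 3 mice a group while dKO has 4 libraries, so p-values measure the spread between libraries, which may be in part technical.

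miR-146a is a microRNA that loads into an Argonaute complex and lowers the stability and translation of messenger RNAs that pair with its seed. It is known as a brake on Toll-like receptor signalling, since Traf6 and Irak1, the adaptor and the kinase that pass the receptor signal on to NF-kB, are among its targets. Mice without it develop a myeloid disorder of the marrow. TIFAB, the protein encoded by the other gene targeted here, inhibits the same TRAF6 pathway. The human counterparts of Tifab and the miR-146a gene lie in the stretch deleted in del(5q) myeloid disease. The comparison asks what the loss of miR-146a does to LK cells whichever state Tifab is in.

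The mature sequences are shown because the seed, in capitals at bases 2 to 8, defines the sites counted further on. They are the RefSeq entries of the GRCm38.p6 build and lie on the minus strand at chr11:43374435-43374456 for the 5p arm and chr11:43374399-43374420 for the 3p arm.
miR-146a-5p: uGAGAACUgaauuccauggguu
miR-146a-3p: cCUGUGAAauucaguucuucag
The next 5 sequences are stretches of GENCODE M21 3′ UTRs (GRCm38) around the best match to the 5p seed, in capitals. Traf6 (chr2:101697947-101697970, plus strand) and Irak1 (chrX:74015389-74015412, minus strand) are shown as the best known targets. Gm2a (chr11:55111550-55111572, plus strand), Vps13c (chr9:67986252-67986274, plus strand) and Wdfy1 (chr1:79702868-79702889, minus strand) are shown as genes on which the results turn, a choice made after their values were seen.
Traf6: gctctggtgttgAGTTCTCAttta
Irak1: ctcagaggtcaaAGTTCTCAtgct
Gm2a: accaccacgcctAGTTCTCttga
Vps13c: cactggaaagatGTTCTCAgtgt
Wdfy1: agactatgctttGTTCTCccgc
Traf6 and Irak1 hold the full 8mer. Gm2a and Vps13c hold a 7mer, and Gm2a was lower and Vps13c higher without miR-146a, as given below. Wdfy1 holds the 6mer only, and Lyrm7, the gene with the largest difference, holds no match.

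The libraries carried 7.83 to 12.8 M reads. As a check of the sort, Kit ranged over 345 to 456 CPM (reads scaled to a common library total) in the libraries lacking miR-146a and 270 to 459 CPM in those having it, and the stem cell gate marker Ly6a over 1.11 to 5.30 and 0.597 to 3.00 CPM. The lineage genes Cd3e, Cd8a, Cd79a, Ms4a1 and Klrb1c stayed at or below 2.56 CPM in all libraries and Cd4 at or below 5.08 CPM, whereas Itgam, a myeloid lineage gene, was not near 0 (40.4 to 87.5 and 43.1 to 90 CPM). The row of the miR-146a gene had 0 reads in all 13 libraries, so its loss could not be checked there; a count of 0 allows up to 3 reads, or 0.235 to 0.383 CPM. Tifab lay at 6.01 to 6.15 log2 CPM in miR-146a_KO and 1.72 to 3.46 in dKO, against 5.31 to 5.63 in WT and 3.17 to 3.69 in TIFAB_KO, so it was lower in each library labelled as lacking Tifab than in each labelled as having it. TIFAB_KO replicate 3 and dKO replicate 3 stood apart from the rest (median correlation with the other libraries 0.947 and 0.951), and results were also computed without both.

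Few genes differed strongly between the libraries lacking miR-146a and those having it. Of 11867 genes tested, 173 (1.46%) differed at an adjusted p under 0.05 (limma, Benjamini-Hochberg over all genes tested), of which 115 (0.969%) rose and 58 (0.489%) fell. The genes that rose had differences of 0.40 to 2.90 on the log2 scale with a median of 0.61, and 10 of them reached 1. The genes that fell had differences of -1.71 to -0.42 with a median of -0.67, and 7 of them reached -1. At an unadjusted p under 0.05 there were 2858 genes. The median of all genes tested was 0.09, with 62.6% above 0; it was 0.03 after centring each library on its median and 0.01 after quantile normalization. All 7 libraries lacking miR-146a lay above all 6 having it for 126 genes (1.06%) and below them for 60 (0.506%), and 46 of the genes that rose and 32 of those that fell were of this kind.

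The number of genes rested on single libraries and on how library quality was handled. Without miR-146a_KO replicate 1, 2 or 3 the genes higher and lower numbered 52 and 26, 4 and 6, and 8 and 8. Without dKO replicate 1, 2, 3 or 4 they numbered 4 and 5, 4 and 7, 6 and 5, and 737 and 327. Without WT replicate 1, 2 or 3 they numbered 3 and 3, 6 and 8, and 405 and 143, and without TIFAB_KO replicate 1, 2 or 3 they numbered 54 and 37, 582 and 120, and 10 and 11. Removing both TIFAB_KO replicate 3 and dKO replicate 3 left 3 and 3, and entering the 45S pre-ribosomal RNA share of each library as a covariate left 4 and 3. The split by direction also moved with scaling: 66.5% of the called genes were higher with the values as deposited, 42.3% (63 and 86 genes) after centring each library on its median, and 46.3% (69 and 80) after quantile normalization. The sign of the difference held for each of the 173 genes under every alternative in which it was tested. The alternatives refit the libraries on which these genes were chosen, which favours a kept sign, so this is no separate support.

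Just 6 genes were called at an adjusted p under 0.05 under each of 30 alternative fits, the 13 that leave out a library included: Lyrm7, Wdfy1 and Vps13c rose, and Gm2a, Cmss1 and Rplp1 fell. They were picked out by this criterion after the values were seen, and Vps13c, just under a difference of 1, is not among the genes that also reach a fold change of 2. Without TIFAB_KO replicate 3 and dKO replicate 3 together these 6 were the genes called, so the other calls of the pooled comparison were lost in that fit. Lyrm7 (chr11:54826866-54860916, minus strand) encodes a chaperone that delivers the Rieske iron-sulphur protein to mitochondrial complex III. It lay at 4.30 to 4.94 log2 CPM (median 4.82) in the libraries lacking miR-146a, against 1.14 to 2.52 (median 1.73) in those having it. The ranges were more than 1 log2 unit apart, and the level was 7.47-fold higher (log2 2.90 ± 0.22 (SE), limma adjusted p = 1.54e-07, n = 7 and 6). A small nuclear RNA gene, Gm25426, is annotated within Lyrm7 on the other strand.

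Wdfy1 (chr1:79702262-79776143, minus strand) encodes an endosomal protein that is known to help Toll-like receptors recruit the adaptor TRIF. It ranged over 5.30 to 6.27 log2 CPM (median 5.95) in the libraries lacking miR-146a, against 2.89 to 4.16 (median 3.84) in those having it. The groups did not overlap and Wdfy1 rose 4.18-fold (2.06 ± 0.20, limma adjusted p = 7.14e-06, n = 7 and 6). Among the libraries lacking miR-146a, all 4 dKO libraries (5.95 to 6.27) lay above all 3 miR-146a_KO libraries (5.30 to 5.50). The difference between the Tifab states was 1.01 ± 0.33 (limma adjusted p = 0.945), which did not pass. Wdfy1 overlaps the start of Mrpl44, which lies on the other strand and had 0.07 ± 0.15 (adjusted p = 0.792).

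Vps13c (chr9:67840396-67995638, plus strand) encodes a lipid transfer protein at contacts between organelles. It lay at 7.63 to 8.08 log2 CPM (median 7.99) without miR-146a, against 6.41 to 7.47 (median 6.89) with it, and rose by 1.00 ± 0.13 (limma adjusted p = 0.00101, n = 7 and 6). The library nearest to the other group was TIFAB_KO replicate 2, at 7.47.

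Gm2a (chr11:55098115-55113029, plus strand) encodes the activator protein that presents GM2 ganglioside to lysosomal hexosaminidase A. Its level was 5.93 to 6.28 log2 CPM (median 6.02) without miR-146a, against 7.14 to 7.74 (median 7.56) with it. The spread within each group was small beside the gap, and Gm2a fell to 0.368 of the level with miR-146a (-1.44 ± 0.11, limma adjusted p = 1.54e-07, n = 7 and 6). Of the 15 genes of lysosomal sphingolipid breakdown tested it was the only one called (6.67%, against 1.46% of all genes). The list was written with earlier results of these data known, so this share is no separate support. It had 11 members below 0 and a median of -0.11.

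Cmss1 (chr16:57302000-57606864, minus strand), linked to the small ribosomal subunit by its yeast relative, lay at 1.57 to 3.88 log2 CPM (median 3.02) without miR-146a and 4.31 to 4.64 (median 4.57) with it. It fell by 1.71 ± 0.24 on the log2 scale (limma adjusted p = 0.0019, n = 7 and 6). The 3 miR-146a_KO libraries (1.57, 2.04 and 2.51) lay below the 4 dKO libraries (3.88, 3.26, 3.02 and 3.78), and the difference between the Tifab states was 1.44 ± 0.37 (limma adjusted p = 0.599). Filip1l lies inside Cmss1 on the other strand and had -0.45 ± 0.22 (adjusted p = 0.23); the labels do not say whether reads were counted by strand, so reads of these genes cannot be told apart.

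Rplp1 (chr9:61913284-61914542, minus strand), a protein of the ribosomal stalk, lay at 6.96 to 7.57 log2 CPM (median 7.46) without miR-146a, against 7.94 to 8.87 (median 8.35) with it. It fell by 1.06 ± 0.15 on the log2 scale (limma adjusted p = 0.00143, n = 7 and 6). Beyond these 6, the most often called were the transcription factor gene Zbtb16 (0.93 ± 0.16, adjusted p = 0.0111), under 25 of the 30 alternatives, and Crip1 (-0.84 ± 0.14, 0.0111) and R3hdm4 (-0.66 ± 0.11, 0.0111), under 24 each.

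**Figure D1:**
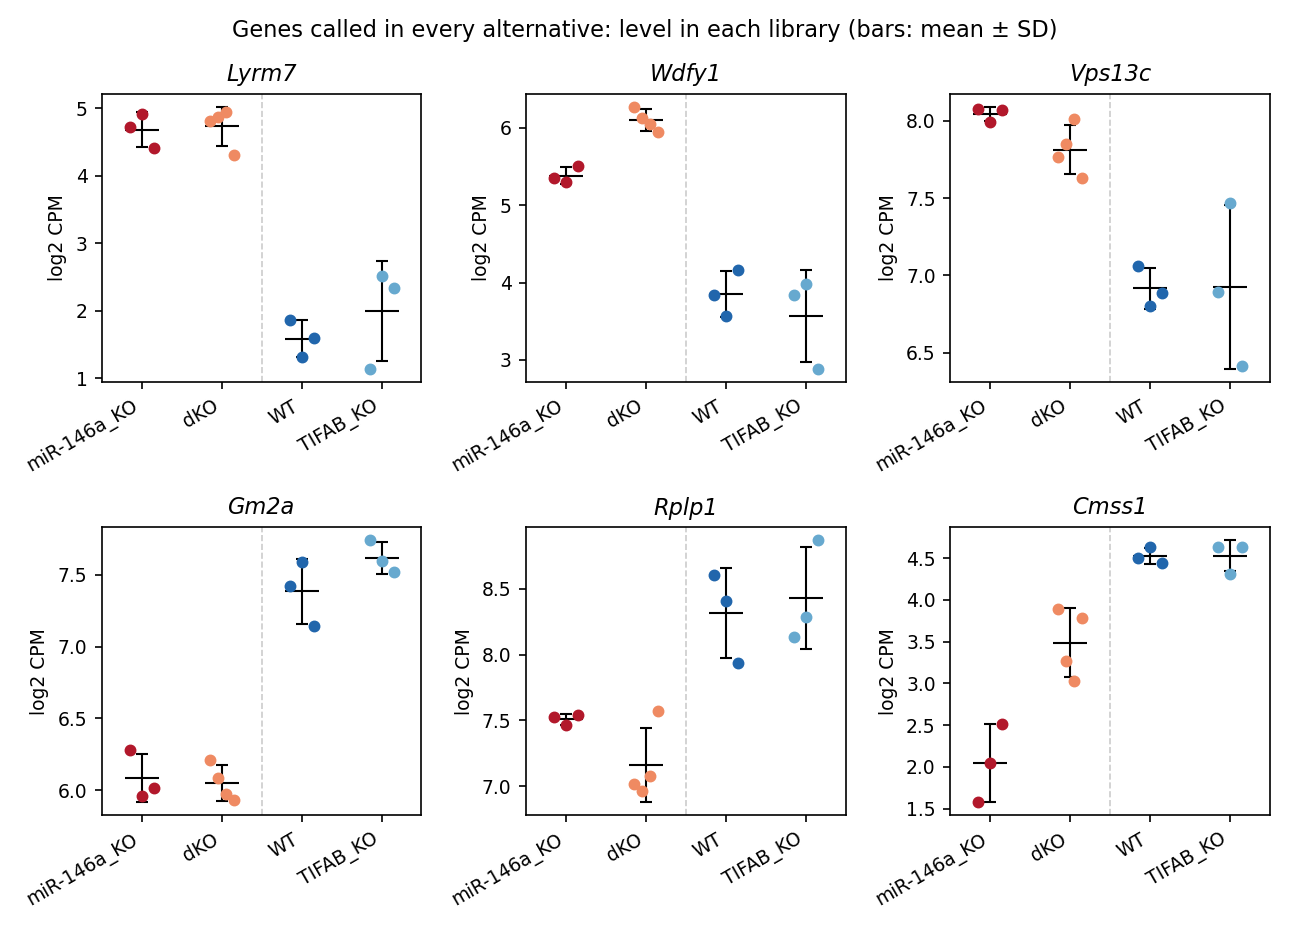
Level of each of the 6 genes called under all 30 alternatives, in log2 CPM (vertical axes differ between panels), for the libraries lacking miR-146a (miR-146a_KO, dKO) left of the dashed line and those having it (WT, TIFAB_KO) right of it; points are libraries, bars the group mean ± SD. In every panel the 7 libraries on the left lie on 1 side of the 6 on the right, and in Cmss1 and Wdfy1 the miR-146a_KO and dKO libraries also lie apart.

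The average over the Tifab states was then taken apart into independent comparisons that share no library. On their own 6 libraries, miR-146a_KO and WT differed in 89 genes (0.75%; 62 higher and 27 lower), and an unadjusted p under 0.05 was held by 2018. On their own 7 libraries, dKO and TIFAB_KO differed in 3 genes (0.0253%), Lyrm7 and Wdfy1 higher and Gm2a lower, and an unadjusted p under 0.05 was held by 1506. These 3 genes were the ones called in both comparisons. Each of the 173 genes of the pooled fit had the same sign in both, which the pooling itself favours, against 67.8% of all genes tested. Of the 89 genes called in miR-146a_KO against WT, 71 had the same sign in dKO against TIFAB_KO. The libraries of dKO and TIFAB_KO entered that choice only through the limit on mean level, taken over all 13 libraries. The number 89 itself depended on the fit, as 1 fit of 4 group means over all 13 libraries called 10.

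Lyrm7 differed by 3.09 ± 0.25 in miR-146a_KO against WT and 2.73 ± 0.33 in dKO against TIFAB_KO, and Gm2a by -1.30 ± 0.15 and -1.57 ± 0.16. For Vps13c the values were 1.13 ± 0.12 and 0.89 ± 0.21, and for Rplp1 they were -0.81 ± 0.15 and -1.27 ± 0.21. Wdfy1 had 1.53 ± 0.19 and 2.53 ± 0.25, and Cmss1 -2.48 ± 0.26 and -1.04 ± 0.26. All 6 genes, which were chosen on the pooled fit, thus had like-signed values several SE from 0 in each Tifab state. Over all genes tested the 2 sets of differences had a Pearson correlation of 0.34 (Spearman 0.39), a description across genes, which are not independent replicates. In the test of the difference between the states, 0 of 11867 genes passed (percent called 0; limma, 502 at an unadjusted p under 0.05), and 1, Egr3, passed without TIFAB_KO replicate 1. A p that misses the threshold does not show that the states act alike.

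**Figure D2:**
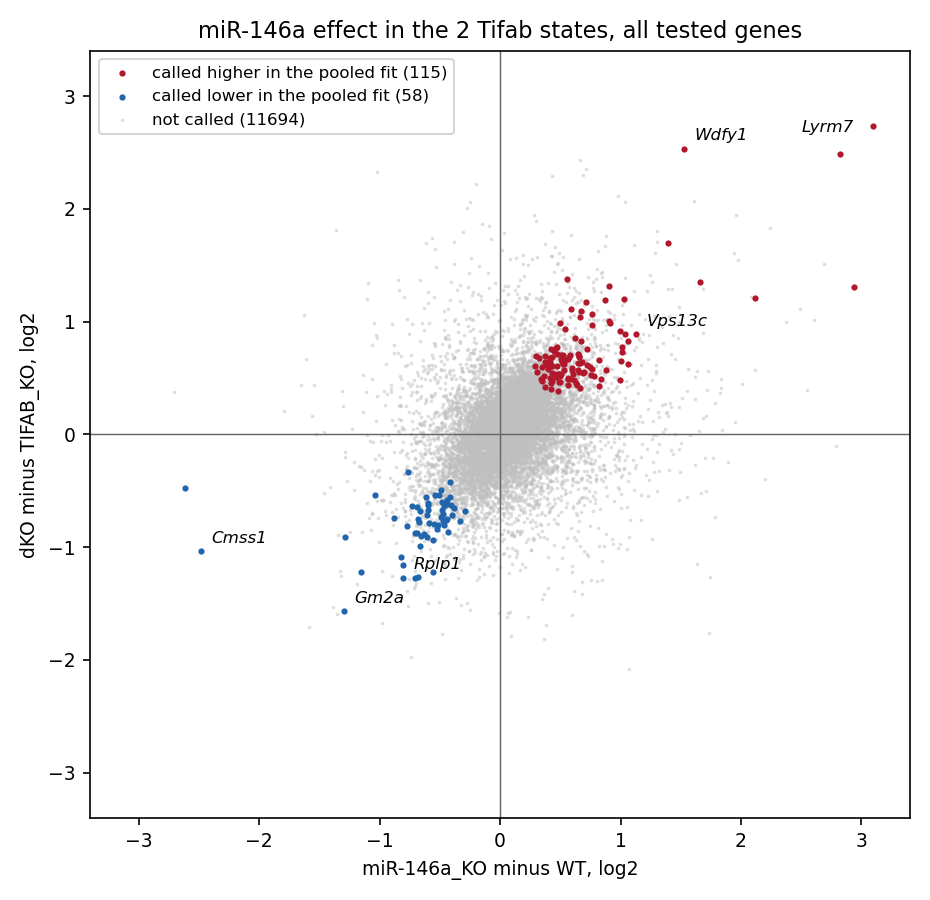
Log2 difference of each tested gene in miR-146a_KO minus WT (horizontal) and in dKO minus TIFAB_KO (vertical), which share no library; red and blue points are the 115 and 58 genes called higher and lower in the pooled fit, grey points the rest. Called genes fill the upper right and lower left corners, and Cmss1 lies farther from 0 on the horizontal axis and Wdfy1 on the vertical one.

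The reported targets of miR-146a did not pass. Of 20 listed, 14 were tested and 6 (Card10, Erbb4, Fas, Ccr3 and Egfr among them) were below the expression limit; 0 of the 14 were called, 12 had values above 0, and their median was 0.18 against 0.09 over all genes. Traf6 lay at 7.08 to 7.60 log2 CPM (median 7.46) without miR-146a, against 6.63 to 7.58 (median 7.15) with it. Its groups overlapped almost wholly, and its difference was 0.24 ± 0.13 (limma adjusted p = 0.286), with 0.15 ± 0.14 in miR-146a_KO against WT and 0.31 ± 0.21 in dKO against TIFAB_KO. Irak1 lay at 7.37 to 7.58 (median 7.46) against 7.24 to 7.52 (median 7.36), a difference of 0.09 ± 0.09 (adjusted p = 0.519). The signs of both depended on the alternative, as they turned below 0 for Traf6 with the 45S share as a covariate (-0.01) and for Irak1 under quantile normalization (-0.03).

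Among the targets not called, Smad4, the shared mediator of TGF-beta signalling, had 0.28 ± 0.14 (limma adjusted p = 0.212) and the cytokine gene Il6 had 0.87 ± 0.45 (0.239). Il6 had a median of -0.35 log2 CPM with miR-146a and passed the limit of 0 only through the libraries lacking it. Of the others, Tlr4 had 0.44 ± 0.29, Numb 0.27 ± 0.14, Prkce 0.19 ± 0.18, Cxcr4 0.17 ± 0.15 and Rac1 0.13 ± 0.11, while Notch2 had 0.09 ± 0.12, Relb 0.07 ± 0.47, Irak2 -0.04 ± 0.15 and Notch1 -0.12 ± 0.15. None of these passed, at adjusted p-values from 0.244 upward. For Relb the SE is larger than the value itself by far.

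The seed sites of all genes were examined to see whether messages with a site were higher as a class. Sites were searched on the transcript strand of annotated 3′ UTRs, in order AGTTCTCA (8mer), AGTTCTC (7mer-m8), GTTCTCA (7mer-A1) and GTTCTC (6mer), each shorter match lying within the 8mer, and a gene was classed by its best match. Among 10814 tested genes with a 3′ UTR the best match was the 8mer in 4.76%, a 7mer-m8 in 8.16%, a 7mer-A1 in 8.05%, the 6mer in 13.2% and none in 65.9%. The median difference was 0.16 for the 8mer (n = 515), 0.14 for the 7mer-m8 (n = 882), 0.14 for the 7mer-A1 (n = 870), 0.13 for the 6mer (n = 1425) and 0.06 for no match (n = 7122). The medians fall in the order of site strength.

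The same order follows 3′ UTR length, whose median was 2736 bases for genes with the 8mer and 821 for those with no match. Genes were then split into 4 equal bins of 3′ UTR length. Within the longest bin the medians were 0.20, 0.19, 0.18 and 0.19 for the 4 site classes and 0.20 for no match, and within the third bin 0.10, 0.12, 0.11 and 0.12 against 0.11. In these bins genes with a site did not stand above genes without one. In the shortest bin the 8mer had 0.11, on 16 genes, and the other classes -0.05 to -0.03. Genes that rose made up 1.36% of the 8mer class, 1.59% and 1.15% of the 7mer classes and 1.33% of the 6mer class, against 0.744% of genes with no match. Within the longest bin they made up 1.94% of the 8mer class, 2.21% and 1.40% of the 7mer classes and 3.05% of the 6mer class. Among genes with no match in that bin the share was 1.94%. For the 7mer and 8mer classes together the share was 2.03% (6 of 296 genes) in the second bin and 0.313% in the third. Genes with no match had 0.377% and 1.11% in those bins.

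**Figure D3:**
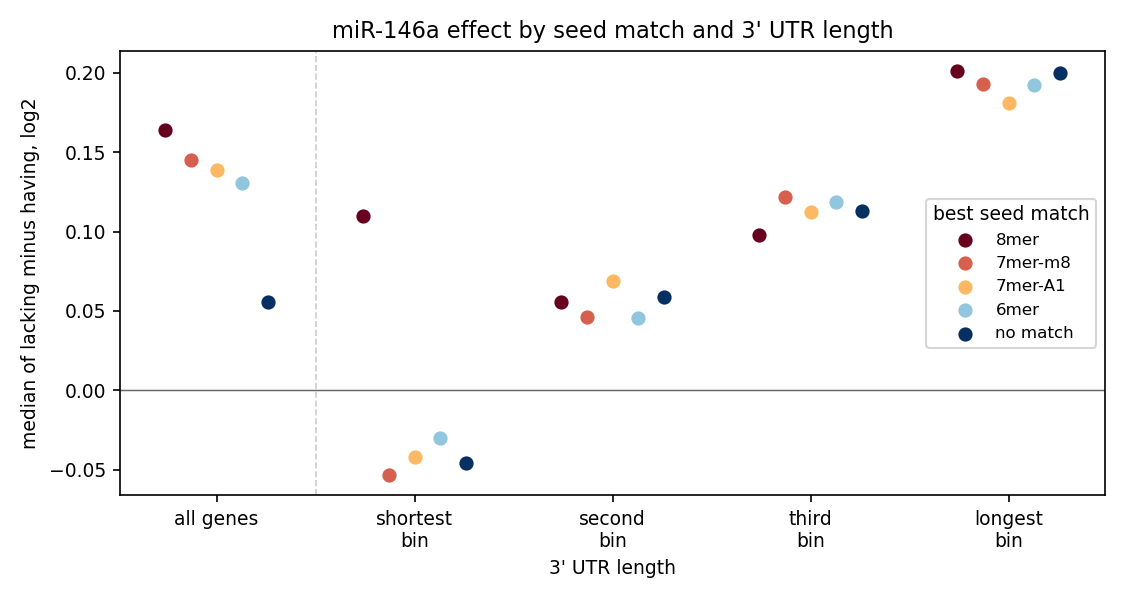
Median log2 difference, lacking minus having miR-146a, of genes by their best match to the miR-146a-5p seed, over all genes (left of the dashed line) and within 4 equal bins of 3′ UTR length. Over all genes the medians run from 0.16 for the 8mer to 0.06 for no match, while within the longest bin all 5 classes lie between 0.18 and 0.20.

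Wdfy1 was also the 1 member called among 38 genes of the TRAF6 and Toll-like receptor pathway (2.63%, against 1.46% of all genes). This list too was written with earlier results known, so its share is no separate support. The list had 27 members above 0 and a median of 0.18 (0.12 after centring on the library median, 0.08 after quantile normalization), 11 with an unadjusted p under 0.05 above 0 and 1 below. Over all 11867 genes, 2074 had an unadjusted p under 0.05 above 0 and 784 below. Among NF-kB subunits and response genes 0 of 29 tested were called; the median was 0.05 and turned to -0.01 after either rescaling. Ptgs2, the inducible cyclooxygenase, came nearest (0.51 ± 0.14, limma adjusted p = 0.0608), followed by the chemokine gene Cxcl2 (0.69 ± 0.33, 0.2) and Cd83 (0.92 ± 0.57, 0.324). Cd83 averaged below 0 log2 CPM with miR-146a and passed the limit of 0 only through the libraries lacking it. For Cd83 the value was -0.15 ± 0.44 in miR-146a_KO against WT and 1.86 ± 0.93 in dKO against TIFAB_KO. The NF-kB list as a whole had medians of -0.11 and 0.17 in these comparisons.

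Of 43 interferon response genes 2 rose (4.65%, against 0.969% of all genes) and 0 fell, with a list median of 0.08. The list median was 0.22 in miR-146a_KO against WT and 0.07 in dKO against TIFAB_KO. An unadjusted p under 0.05 was held by 10 members above 0 and 2 below (all 11867 genes, 2074 and 784). The 2 calls were lost with total reads or the 45S share as a covariate, with the length trend removed and when any 1 of 9 libraries was left out. Irgm1, an interferon-induced GTPase that acts against intracellular bacteria, lay at 4.90 to 6.17 log2 CPM (median 5.77) without miR-146a, against 4.26 to 5.31 (median 4.60) with it (0.96 ± 0.19, limma adjusted p = 0.0298). The guanylate-binding protein gene Gbp7 had 6.59 to 7.70 (median 6.86) against 6.16 to 6.71 (median 6.33), a rise of 0.59 ± 0.15 (adjusted p = 0.0481). Both overlapped by the lowest library lacking miR-146a, dKO replicate 4. Both were highest in dKO replicate 3.

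Ribosomal protein genes made up 29 of the 58 genes that fell. Of 78 tested, 77 had values below 0 and 0 rose, with 37.2% falling against 0.489% of all genes, and the median was -0.49 against 0.09 over all genes. For 18 of them all libraries lacking miR-146a lay below all having it, against 0.506% of all genes. The list median was -0.39 in miR-146a_KO against WT and -0.58 in dKO against TIFAB_KO. Their summed level was 61085, 63391 and 56199 CPM in miR-146a_KO and 54454, 57889, 55205 and 63145 CPM in dKO, against 84074, 69718 and 73175 CPM in WT and 72290, 64944 and 101532 CPM in TIFAB_KO. The groups did not overlap in this sum, and TIFAB_KO replicate 3 was the highest by far.

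The 29 ribosomal genes that fell did so by -1.06 to -0.42. Rps14, a small subunit protein whose human gene lies in the del(5q) region, had 6.92 to 7.77 log2 CPM (median 7.31) without miR-146a and 7.82 to 9.32 (median 8.16) with it (-0.99 ± 0.20, limma adjusted p = 0.0298). Rps10 had -0.99 ± 0.21 (0.0385), Rpl11, which can bind Mdm2 in ribosomal stress, -0.91 ± 0.22 (0.0478), Rps4x -0.81 ± 0.20 (0.0481), Rpl19 -0.79 ± 0.19 (0.0478) and Rpl24 -0.76 ± 0.15 (0.0298). Single values are uncertain, since these genes share sequence with many processed pseudogenes and the labels do not say how shared reads were counted. Without both TIFAB_KO replicate 3 and dKO replicate 3 the median was -0.37 and Rplp1 was the 1 member called, and with the 45S share as a covariate they were -0.37 and 1.

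Of 5 library measures set beside these genes, 1 passed after adjustment. The share of reads on 45S pre-ribosomal RNA was 5.49 ± 1.20% (SD, n = 7) in the libraries lacking miR-146a and 7.56 ± 2.23% (n = 6) in those having it (two-sided exact permutation within Tifab states, p = 0.0686; Benjamini-Hochberg over 5 measures 0.114). The 10 largest genes took 11.7 ± 1.55% and 14.8 ± 3.09% of reads (exact permutation p = 0.0414, adjusted 0.104), and total reads were 9.33 ± 1.40 and 10.6 ± 1.63 M (exact permutation p = 0.16, adjusted 0.2). Rows with a read numbered 15310 ± 579 and 15212 ± 458 (exact permutation p = 0.739, adjusted 0.739). With genes split into 4 equal bins by transcript length, the median log2 CPM of the longest bin minus that of the shortest was 1.83 ± 0.10 without miR-146a and 1.56 ± 0.23 with it, the measure that passed (exact permutation p = 0.00571, adjusted 0.0286; the smallest p the 700 arrangements allow is 0.00143). This length measure was not among those planned. It is computed from the same log2 CPM values as the gene differences, so its p is not separate support for them. It lay between 1.69 and 1.96 in the libraries lacking miR-146a and between 1.11 and 1.74 in the others, lowest in TIFAB_KO replicate 3. Per gene, the median difference was -0.06, 0.04, 0.12 and 0.22 from the shortest to the longest bin.

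The genes that rose had a median transcript length of 5190 bases, the genes that fell 1109 and all genes tested 3389. Ribosomal protein genes, with a median of 1077 bases, are among the shortest. With the trend of level on transcript length removed from each library, an alternative chosen after seeing the data, 16 genes were higher and 11 lower, the ribosomal median was -0.33 with 3 members called, and the median of the 7mer and 8mer classes together and that of genes with no match were 0.08 and 0.07. How far library composition takes part in the shallow differences was not tested beyond these values.

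**Figure D4:**
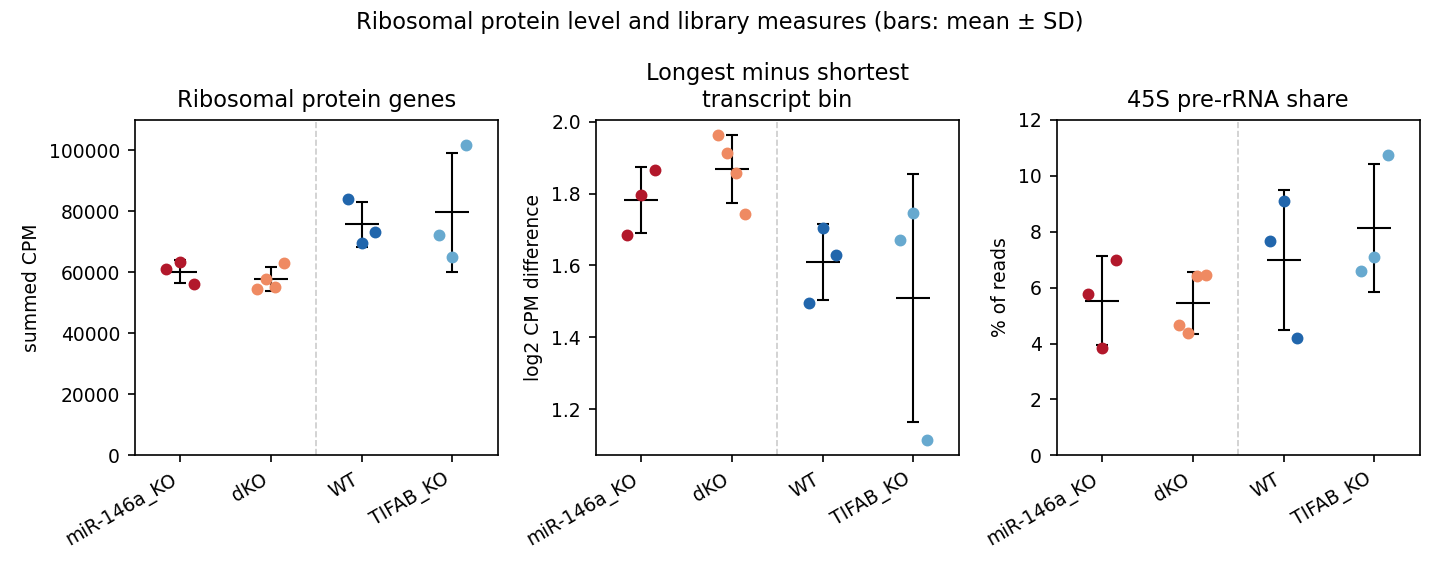
Summed level of the ribosomal protein genes in CPM (left), median log2 CPM of the longest minus the shortest of 4 equal bins of transcript length (middle) and share of reads on 45S pre-ribosomal RNA in percent (right), for miR-146a_KO and dKO left of the dashed line and WT and TIFAB_KO right of it; points are libraries, bars the mean ± SD. The ribosomal sums of the 2 sides do not overlap, and TIFAB_KO replicate 3 is at an extreme in all 3 panels.

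Nuclear genes of the respiratory chain leaned the same way by less. Of 73 tested, 59 had values below 0, 2 fell (against 0.489% of all genes) and 0 rose, and the median was -0.23. With the trend on transcript length removed the median was -0.09 and 0 were called. Uqcr10, a small subunit of complex III, lay at 5.14 to 5.77 log2 CPM (median 5.59) without miR-146a, against 5.83 to 6.46 (median 6.05) with it, with no overlap (-0.54 ± 0.13, limma adjusted p = 0.0428). Atp5h, a subunit of ATP synthase, had 6.12 to 6.75 (median 6.57) against 6.65 to 7.47 (median 7.01; -0.53 ± 0.13, adjusted p = 0.0494). Among the 14 tested complex III subunits and assembly factors, Lyrm7 rose and Uqcr10 fell, 7 members lay on each side of 0, and the median was -0.04.

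The remaining genes called with a difference of about 1 or more belong to varied functions. Cyp11a1, the enzyme that starts steroid synthesis, lay at 1.92 to 4.35 log2 CPM (median 2.88) without miR-146a, against -0.83 to 2.48 (median 0.81) with it (2.07 ± 0.47, limma adjusted p = 0.0389). Its libraries overlapped and TIFAB_KO replicate 3 was the highest of those having miR-146a. The talin gene Tln2 had 1.56 to 2.52 (median 2.11) against 0.06 to 1.60 (median 0.28; 1.63 ± 0.30, adjusted p = 0.0245). The histone gene Hist1h3d had 1.55 ± 0.31 (0.0298), the class I major histocompatibility gene H2-Q5 1.13 ± 0.27 (0.0436), and both belong to families of near-identical copies, so these values are uncertain.

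Further genes that rose were Mybl1, a MYB family transcription factor (1.05 ± 0.21, limma adjusted p = 0.0298), the corticotropin receptor gene Mc2r (0.99 ± 0.23, 0.0427), the carbonic anhydrase gene Car12 (0.96 ± 0.17, 0.024) and Atat1, which acetylates alpha-tubulin (0.96 ± 0.20, 0.0366). Mybl1, Car12 and Atat1 had no overlap between the groups. Genes that fell included the cold-induced RNA-binding protein gene Cirbp (-1.19 ± 0.27, 0.0405), the glucocorticoid-induced Tsc22d3 (-1.09 ± 0.20, 0.0245), Ccdc107 (-1.01 ± 0.24, 0.0428) and Pdzk1ip1 (-0.96 ± 0.21, 0.0385). Tsc22d3 lay at 4.17 to 5.62 log2 CPM (median 4.68) without miR-146a, against 4.99 to 6.70 (median 5.99) with it. A further 13 called rows, 10 higher and 3 lower, carry names of unnamed loci, predicted genes or small RNAs and are counted only.

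The differences were also arranged by distance from the miR-146a gene, since a targeted allele is inherited with its neighbourhood. The miR-146a gene lies at chr11:43374397-43374461. Within 5 Mb of it 20 genes were tested and 1 was called, Pttg1, which lies 0.0488 Mb away (chr11:43420250-43426251). It encodes securin, an inhibitor of sister chromatid separation before anaphase. Pttg1 had 4.78 to 5.62 log2 CPM (median 5.31) without miR-146a, against 3.85 to 5.04 (median 4.20) with it (0.95 ± 0.19, limma adjusted p = 0.0298). Between 5 and 10 Mb 2 of 51 were called (Irgm1 and Tgtp1), and between 10 and 20 Mb 3 of 144 (Lyrm7, Gm2a and Ccdc69). On the rest of chromosome 11 the share was 2.34% of 727, and on other chromosomes 1.37% of 10361.

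Lyrm7, Ccdc69 and Gm2a are near neighbours, 11.5 to 11.7 Mb from the miR-146a gene, and the first rose while the other two fell. Ccdc69 (chr11:55049731-55078131) lay at 2.90 to 3.76 log2 CPM (median 3.45) without miR-146a, against 3.76 to 4.53 (median 4.20) with it (-0.77 ± 0.17, limma adjusted p = 0.0385). Tgtp1, an interferon-induced GTPase (chr11:48985327-48994172), had 0.49 to 4.31 (median 1.59) against -2.70 to 0.39 (median -0.55; 2.64 ± 0.57, adjusted p = 0.0385) and is uncertain, since it has a near-identical neighbour. Its mean over all libraries was 0.55 log2 CPM, so it passed the limit of 0 only through the libraries lacking miR-146a. It is 1 of the 2 genes called between 5 and 10 Mb. Pttg1, Tgtp1 and Ccdc69 are named for their position, after their values were seen. Loss of miR-146a and a strain difference linked to its allele cannot be told apart in this design.

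**Figure D5:**
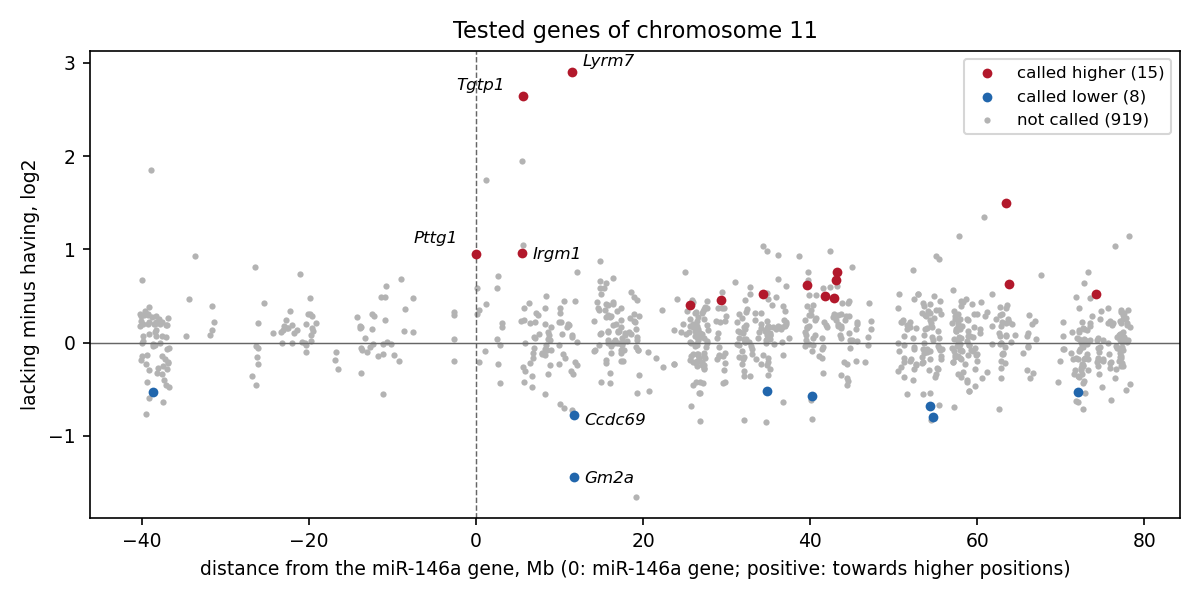
Log2 difference, lacking minus having miR-146a, of the 942 tested genes of chromosome 11 against their distance in Mb from the miR-146a gene; red and blue points are called genes. Lyrm7, Ccdc69 and Gm2a stand in 1 column between 11 and 12 Mb, with differences of 2.90, -0.77 and -1.44.

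Called genes were also counted in windows of 10 Mb, of which 274 held tested genes, against 1.46% called over all genes. The most calls lay from 60 to 70 Mb on chromosome 9, with 6 of 57 (10.5%): Car12, Megf11, Parp16, Tln2 and Vps13c rose and Rplp1 fell. Cyp11a1 and Adpgk lie just before it. The window from 80 to 90 Mb on chromosome 11 also had 6, of 91 (6.59%), that from 60 to 70 Mb on chromosome 18 had 5 of 59 (8.47%), Rps14 among them, and that from 110 to 120 Mb on chromosome 7 had 4 of 40. The window from 70 to 80 Mb on chromosome 1, with Wdfy1, had 4 of 43. The window from 50 to 60 Mb on chromosome 16, given because it holds Cmss1, had 3 of 23, with Cmss1 and Rpl24 lower and Zbtb11, which starts beside Rpl24, higher (0.44 ± 0.10, limma adjusted p = 0.0436). Windows were ranked after their calls were seen, so these are given as a description.

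Genes of G2 and mitosis lay mostly above 0. Of 35 G2 and mitosis genes, 33 had values above 0 and 0 were called, with a median of 0.22 (0.12 after quantile normalization); 13 had an unadjusted p under 0.05, all above 0. Of all 11867 genes tested, 7426 lay above 0 and 2074 of them had an unadjusted p under 0.05. Ccnb1, the mitotic cyclin, had 0.48 ± 0.14 (limma adjusted p = 0.0643), Anln 0.43 ± 0.12 (0.0576) and Ect2, both genes of cytokinesis, 0.41 ± 0.11 (0.0576). Of 35 S-phase genes 1 rose (2.86%, against 0.969% of all genes), the atypical E2F gene E2f8 (8.22 to 8.86 log2 CPM, median 8.71, against 7.52 to 8.43, median 7.98; 0.60 ± 0.15, adjusted p = 0.0478), and 25 lay above 0 (all genes, 62.6%). The S-phase median was 0.12, or 0.02 after quantile normalization. G2 and mitosis genes have a median transcript length of 3645 bases, near that of all genes, and their median without the length trend was 0.20.

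Stress genes gave 0 calls. Of 32 immediate early and heat shock genes the median was 0.08, and it was -0.30 in miR-146a_KO against WT and 0.32 in dKO against TIFAB_KO. The small heat shock protein gene Hspb1 had 2.02 ± 0.53 (limma adjusted p = 0.0546), the chaperone gene Hsp90aa1 0.40 ± 0.11 (0.0587) and the immediate early gene Ier2 -0.55 ± 0.15 (0.0623). Of 27 genes of the unfolded protein response and endoplasmic reticulum folding the median was 0.13 (0.31 and -0.08 in the 2 comparisons). Sel1l (0.39 ± 0.11, 0.0623) and Syvn1 (0.38 ± 0.11, 0.0709), partners in the degradation of misfolded proteins, and the translocon gene Sec61b (-0.49 ± 0.15, 0.0765) came nearest.

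Markers of the cell types in or near the LK gate gave 3 calls, 1 each in lists of 25, 19 and 9 tested genes, against 1.46% of all genes. Pf4, a platelet chemokine gene, lay at 7.08 to 8.22 log2 CPM (median 7.92) without miR-146a, against 8.34 to 8.85 (median 8.58) with it, with no overlap (-0.68 ± 0.15, limma adjusted p = 0.0385). Of 25 megakaryocyte and platelet genes tested, 19 had values below 0, and 7 of those had an unadjusted p under 0.05. Of all 11867 genes tested, 4441 lay below 0 and 784 of those had an unadjusted p under 0.05. The megakaryocyte and platelet list had a median of -0.22, and its genes summed to 1509 to 2573 CPM against 1883 to 2746 CPM. Cyp11a1 was the 1 call among 19 mast cell, basophil and eosinophil genes (median 0.24; 589 to 1405 CPM against 598 to 1365 CPM). That list had medians of 0.81 in miR-146a_KO against WT and -0.10 in dKO against TIFAB_KO. Lat, a signalling adaptor of T cells and megakaryocytes, fell (-0.67 ± 0.15, adjusted p = 0.0385) among 9 tested T and NK cell genes. The list had a median of 0.03, which turned to -0.04 after centring, and summed to 35.2 to 49.9 CPM against 43.8 to 54.8 CPM, and Cd3e did not exceed 0.923 CPM. In bulk samples fewer cells of a type and less RNA per cell cannot be told apart, and the part of such cells in the other results was not tested.

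No member of the other cell type lists passed. Granulocyte-monocyte progenitor genes (23 tested) had a median of -0.14, with 0.25 in miR-146a_KO against WT and -0.50 in dKO against TIFAB_KO, and Cebpa, the myeloid transcription factor, had -0.51 ± 0.18 (limma adjusted p = 0.105), Ctsc 0.33 ± 0.13 (0.136) and Spi1 -0.37 ± 0.16 (0.166). Late granulocyte genes (16) had a median of 0.11, with the lysozyme gene Lyz2 at -0.74 ± 0.25 (0.0936), Cxcr2 at 0.49 ± 0.18 (0.11) and Ceacam1 at 0.38 ± 0.19 (0.228). Monocyte, macrophage and dendritic cell genes (23) had 0.12, with 0.58 in miR-146a_KO against WT and -0.06 in dKO against TIFAB_KO, and Cx3cr1 had 0.55 ± 0.22 (0.143), Xcr1 0.57 ± 0.24 (0.16) and Vcam1 0.87 ± 0.38 (0.166). The first and last of these lists, like the mast cell list, thus lay on different sides of 0 in the 2 Tifab states, and whether a list differs between them was not tested.

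Stem cell and multipotent progenitor genes (27 tested) had a median of 0.00, which turned to -0.06 after rescaling, with Runx1 at 0.42 ± 0.13 (limma adjusted p = 0.0753) and Hoxa9 at 0.35 ± 0.13 (0.12). Erythroid genes (27) had a median of 0.06, which turned to just below 0 after centring (-0.21 in miR-146a_KO against WT and 0.23 in dKO against TIFAB_KO), with Alas2, the first enzyme of erythroid heme synthesis, at 1.08 ± 0.38 (0.101), Ank1 at 0.37 ± 0.15 (0.137) and Aqp1 at -0.35 ± 0.15 (0.16). Of 10 tested B lineage genes, which summed to 30.9 to 83.3 CPM against 41.8 to 69.7 CPM, Igll1 had 1.62 ± 0.43 (0.0576), Ebf1 1.75 ± 0.47 (0.0576) and Pou2af1 1.47 ± 0.48 (0.0874), with a list median of 0.23. Igll1 and Ebf1 had medians of -0.21 and -0.64 log2 CPM with miR-146a. They passed the limit of 0 only through the libraries lacking it. Stromal and endothelial genes (12) had a median of -0.01, with Plvap at -0.64 ± 0.33 (0.242) and Acta2 at 0.76 ± 0.46 (0.312). Acta2, with a median of -0.20 log2 CPM with miR-146a, also passed the limit only through the libraries lacking it.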

How the data were processed

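LK cells were profiled by RNA sequencing in 13 libraries. RNA was amplified with the Ovation system and libraries were made with Nextera XT, per the labels' protocols. Reads were aligned to mm10 with TopHat, counted with featureCounts and handled with limma, per the submitters' processing notes, which name no versions. The deposited values are log2 CPM of the voom form, in which every gene carries 0.5 extra read and every library 1. Dividing this out gave whole reads (tolerance 0.01) for 100% of values, and library totals of 7.83 to 12.8 M. Values below about 0 log2 CPM rest on few reads, and intervals and floors cover counting error only.

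Log2 CPM as deposited were fitted with limma 3.58.1 in R 4.3.3, with miR-146a and Tifab state as additive terms over all 13 libraries and variances moderated along a trend with level (10 residual and 9.45 prior degrees of freedom). The 11867 of 24062 rows that averaged 0 log2 CPM or more were tested, and a Benjamini-Hochberg adjusted p under 0.05 was called. Errors of differences are SE, those of group means SD. On data simulated with this design, 73% of genes changed by 1 log2 unit and 95% of those changed by 2 were called, and 0.077% of unchanged genes. The simulated noise was independent between genes, with no Tifab effect and no shift common to a library. These shares therefore do not give the error rates of the fit to the real libraries. Each Tifab state was also fitted on its own libraries, and the interaction on all.

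The genotypes compared and the 22 gene lists were chosen with earlier results of these data known. Lists are described by counts and medians, with no set test. Named were up to 12 called genes a direction by size, averaging 1 log2 CPM or more, without unnamed loci, all reported targets, every called list member and, for lists with no call, the 3 members of smallest p. Values of a few genes that this rule names are not reported here. Positions, transcript lengths (longest annotated transcript) and 3′ UTRs are those of GENCODE M21 (GRCm38), which 94.4% of rows matched by symbol; microRNA sequences are from RefSeq. Alternatives changed the filter, scaling, variance model, weights, covariates and libraries.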

Additional observations from a re-analysis of the deposited data

Results flagged for a closer look

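Among 104 groups of 4 dKO values examined for a library that stands apart from the other 3 (Dixon's test at the 95% level, which chance alone meets in about 1 group in 20), 3 were marked, and each time the library was dKO replicate 4. Its value was 9.442 log2 CPM for the ribosomal gene Rpl19, 5.934 for the immediate early gene Ier2 and 4.028 for the homeobox gene Hoxa9. Without this library 737 genes were higher and 327 lower. The cause was not tested.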

How the results depend on the processing

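Numbers of called genes depended on the processing, and the causes were not tested. The sign of each of the 173 called genes held wherever it was tested, which refitting the libraries that chose them favours. Against 115 higher and 58 lower, the counts were 299 and 120 with no Tifab term, 55 and 32 with equal weight for both Tifab states, 7 and 6 with no filter on level, 202 and 87 for genes averaging 3 log2 CPM or more, 11 and 3 with no variance trend, 688 and 216 with library quality weights, and 63 and 69 higher after median centring and quantile normalization. They were 3 and 3 with total reads as a covariate or without TIFAB_KO replicate 3 and dKO replicate 3 together, and 4 and 3 with the 45S share as a covariate. Among alternatives chosen after seeing the data they were 4 and 3 with the share of the 10 largest genes as a covariate and 16 and 11 with the transcript length trend removed. At an adjusted p under 0.1 they were 825 and 280, and with a fold change of at least 2 they were 10 and 7. Leaving out each library in turn gave 3 to 737 higher and 3 to 327 lower. With the replicate number as a block they were 620 and 282, and the interaction count 0. That block gives dKO replicate 4, the only library of its number, a term of its own. The correlation of same-numbered deviations ran from -0.20 to 0.23 with a median of -0.02, against -0.20 to 0.27 and 0.01 for different numbers. Whether libraries share a day or batch was not tested. The interaction had 0 to 1 called gene over the left-out libraries, and a fit of 4 group means over all libraries called 10 genes in miR-146a_KO against WT in place of 89.

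Signs that turned belonged to genes that were not called. Tifab had 0.21 with voom weights, 0.013 with total reads and 0.0091 with the 45S share as covariate, 0.095 with the share of the 10 largest genes and 0.089 without both libraries (-0.33 to -0.036 over left-out libraries). Traf6 had -0.014 with the 45S share and -0.037 with the 10 largest genes as covariate (0.12 to 0.34), and Irak1 -0.027 under quantile normalization (0.067 to 0.13). Relb had -0.057 under quantile normalization, -0.10 with quality weights, -0.33 with total reads, -0.13 with the 45S share, -0.14 with the 10 largest genes and -0.44 without both libraries (-0.25 to 0.44). Notch1 had 0.0019 with the 45S share (-0.21 to -0.042). Notch2 had -0.025 under quantile normalization, -0.023 with the 45S share, -0.061 with the 10 largest genes and -0.10 without the length trend (-0.014 to 0.16). Rac1 had -0.048 with the 45S share and -0.051 with the 10 largest genes (0.069 to 0.20), and Irak2 -0.11 to 0.032 over left-out libraries. With 7.83 to 12.8 M reads, differences of genes near 0 log2 CPM were not resolved.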
